A study of Homo sapiens with 6 samples.

Results

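The genes described here are 9 carriers of zinc and related metals, SLC30A1, SLC30A5, SLC30A7, SLC30A10, SLC39A6, SLC39A7, SLC39A8, SLC39A10 and SLC39A14, and the metal-sensing transcription factor MTF1. They are 10 of the 60605 genes in the deposited table, taken by gene symbol, and each symbol had a single row. The set was chosen with the difference between treated and untreated cells already known, so it was in part selected on the values below. Those values are therefore given as a description, and no statement about zinc transport rests on how many of the 10 changed.

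RNA was sequenced from Huh-7, a human hepatoma cell line. Every culture was first given oleic acid at 100 µM over 24 h to fill it with lipid, then plated anew and starved. The control group (3 libraries) then received DMSO with 0 µM pectolinarigenin, and the treated group (3 libraries) received 100 µM pectolinarigenin, a plant flavone, for 24 h. The labels name no metal treatment. They leave unsaid whether replicate libraries stem from different cultures, and the p-values then reflect the spread among the sequenced libraries alone, possibly technical. Bulk RNA cannot tell fewer cells of a kind from less RNA per cell.

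Cells hold zinc with a pair of opposed carrier families. ZnT proteins (genes named SLC30A) lower zinc in the cytosol by moving it out of the cell or into organelles, and ZIP proteins (genes named SLC39A) raise it by bringing it in from outside or from stores. MTF1 senses cytosolic zinc through its zinc fingers and binds short DNA elements called metal response elements. In other cell systems zinc-loaded MTF1 is known to raise transcription of metallothioneins, which are small metal-binding proteins, and of SLC30A1, and to lower that of SLC39A10.

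Total counts were 15140022 to 20311261 per library. The hepatocyte markers fixed for the check of cell type (10 genes, among them ALB, AFP and APOA1) were at 99.99 to 5518 FPKM (fragments scaled by gene length and by library size) in every library. Of these 10, 8 were called lower in treated cells and 1 higher, beside 25.3% lower and 25.3% higher of all tested genes. Their median log2 fold change was -0.34, against 0.00071 over all tested genes, and their part in the results was not tested. Of 11 markers of blood, endothelial and stromal cells, 9 had means under 1 FPKM in both groups. The exceptions were LYZ, at 39.31 to 39.77 FPKM in control and 52.6 to 76.54 in treated cells, and PECAM1, at 2.28 to 2.61 and 1.15 to 1.35. The part of these was not tested either. Treated library 3 stood apart from treated libraries 1 and 2, so values without it are given where it matters.

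Among the carriers, 1 exporter went up and 1 importer went down by more than 2-fold, and the rest moved little. SLC30A1, the zinc exporter of the plasma membrane, rose 2.72-fold, and SLC39A10, an importer of the plasma membrane, fell to a level 4.13-fold lower. SLC39A6 and SLC39A14 also rose and SLC30A7 and SLC39A8 also fell, by at most 0.57 on the log2 scale. The other 4 genes, SLC30A5, SLC30A10, SLC39A7 and MTF1, did not pass the test. In all 3 of 10 were called higher and 3 lower at an adjusted p under 0.05 (edgeR's quasi-likelihood test, Benjamini-Hochberg over 12829 genes with a mean of at least 1 FPKM, which all 10 reached). Of all tested genes 25.3% were called higher, 25.3% lower and 50.6% in either direction, so 6 calls in 10 is close to the background. Changes of at least 2-fold were called in 3.87% of all tested genes and in 2 of the 10, a difference that the choice of the genes had in view. The median log2 fold change was 0.12 over the 10 genes and 0.00071 over all tested genes.

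**Figure D1:**
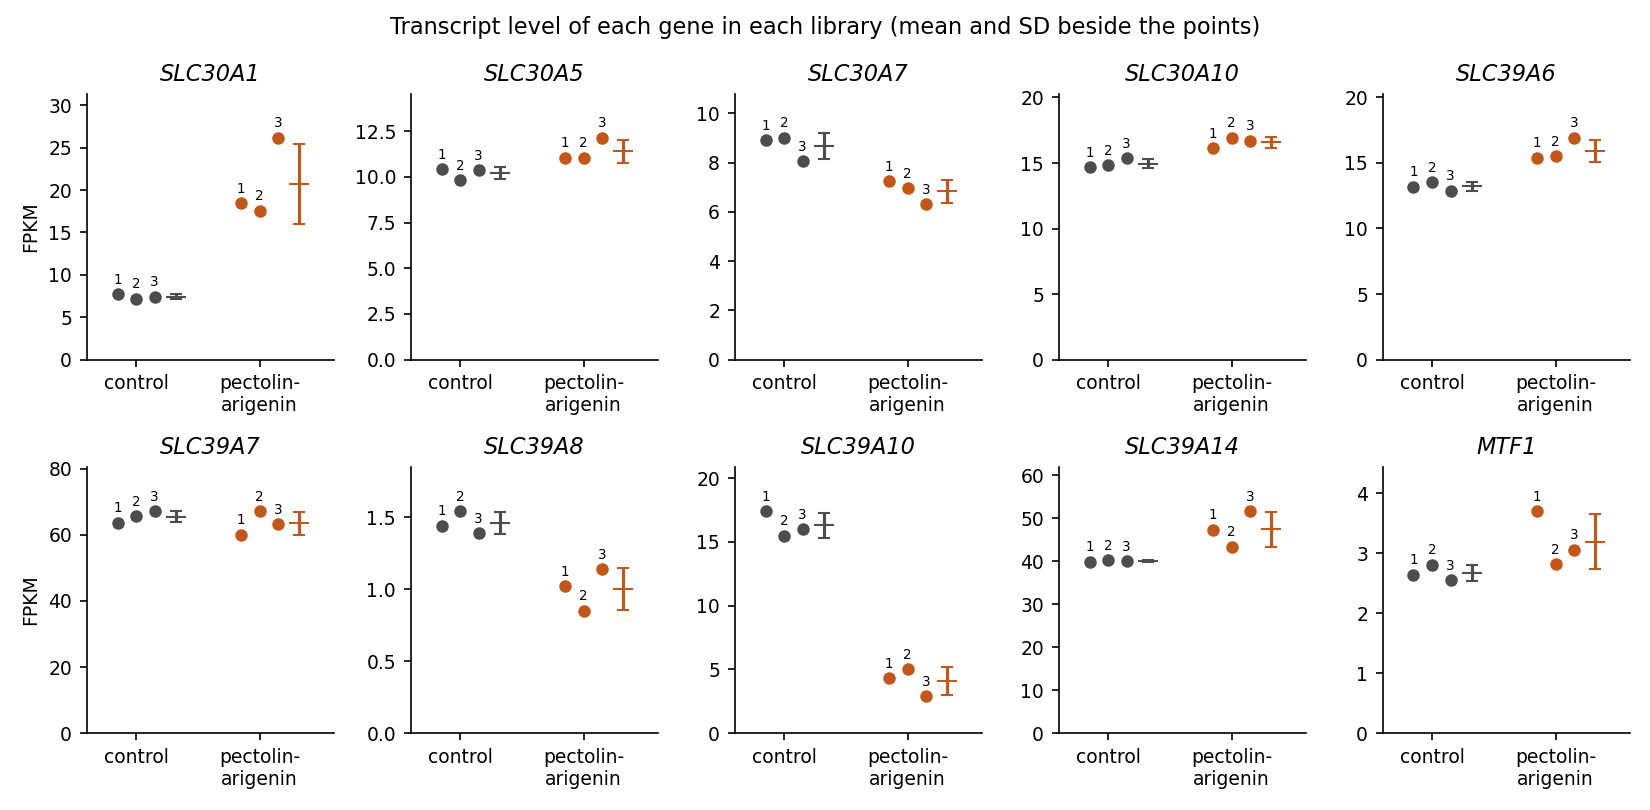
FPKM (vertical axis, from 0) of each of the 10 genes in the 3 control and 3 pectolinarigenin libraries, numbered 1 to 3, with the mean and SD beside the points. The treated libraries of SLC30A1 lie at 17.54 to 26.15 FPKM above controls at 7.19 to 7.74, and those of SLC39A10 at 2.9 to 5.03 below controls at 15.49 to 17.39.

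The exporters come first. SLC30A1 (ENSG00000170385, chromosome 1, 211571568 to 211578742, minus strand, GRCh38, positions from GENCODE 29) encodes ZnT1, which carries zinc out across the plasma membrane. It was at 7.74, 7.19 and 7.4 FPKM in control libraries 1 to 3 and at 18.43, 17.54 and 26.15 FPKM in treated libraries 1 to 3. Every treated library was above every control library, and treated library 3 was the highest. The control mean was 7.44 ± 0.28 FPKM and the treated mean 20.7 ± 4.7 FPKM (SD, n = 3 each). The log2 fold change was 1.44 with a standard error (SE) of 0.12 (edgeR, adjusted p = 2.91e-07). Leaving out single libraries gave 1.23 to 1.56, with the lowest value, 1.23, without treated library 3. The call held in each of the 15 alternative analyses.

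The promoter windows were searched for the core of the metal response element because MTF1 binds it. The windows came from RefSeq (GRCh38.p14, 250 bases before to 50 after each transcript start), and 9 of the 10 genes had at least 1, for 13 windows in all. SLC39A14 had none. The letters searched were TGCACNC and TGCGCNC on both strands, which differ at the fourth base, so that no bases on a strand match both. Of all 35116 windows 29.6% held a match and 8.6% held more than 1. Of the 13 windows of these genes 4 (30.8%) held a match, which is close to that share. Among the other zinc carriers 9 of 18 windows held a match. The 4 were in SLC30A1 (2 matches), SLC39A6, SLC39A8 and SLC39A10 (1 each).

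The sequences shown are those of SLC30A1 and of MT2A, a metallothionein known as a target of MTF1, so that their matches can be set side by side. Each is the 130 bases just before the RefSeq start, 5′ to 3′ on the strand of the gene, with matches in capitals. The RefSeq start of SLC30A1 lies upstream of its GENCODE 29 start. The stretches are chr1:211579162-211579291 (minus strand) and chr16:56608454-56608583 (plus strand). A match to the opposite strand appears as its reverse complement (GAGTGCA for TGCACTC).
SLC30A1: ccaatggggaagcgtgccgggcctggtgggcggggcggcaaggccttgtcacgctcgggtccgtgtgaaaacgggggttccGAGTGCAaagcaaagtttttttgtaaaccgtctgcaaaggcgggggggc
MT2A: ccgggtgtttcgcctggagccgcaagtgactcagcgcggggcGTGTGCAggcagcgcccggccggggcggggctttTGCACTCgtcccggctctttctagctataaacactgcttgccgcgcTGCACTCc

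Stretches of 30 bases around the matches, read on the strand that holds the motif, show how alike they are. Positions count from the RefSeq start, with the base before it as -1. They are given for the 5 matches of the genes described and for the MT2A match nearest in letters to that of SLC30A1.
SLC30A1, -49 to -43: aaaactttgcttTGCACTCggaacccccgt
SLC30A1, 25 to 31: ggccacggcagcTGCACTCggcccggtctc
SLC39A10, 34 to 40 (start 195657226): agcggagaggagaTGCACACggcactcgag
SLC39A6, -17 to -11: ccccgcggcgcTGCGCGCggcggtaattag
SLC39A8, -119 to -113 (start 102345482): gccggcggtccTGCGCCCcggcgtggacgc
MT2A, -54 to -48: ggcggggctttTGCACTCgtcccggctctt
Every match of these genes was compared with every match of MT2A and MT1X. The shared runs had 4 to 10 bases, and the longest are named here because of their length. The match of SLC30A1 at -49 and that of MT2A at -54 share a run of 10 bases, TTTGCACTCG. The match of SLC39A6 shares a run of the same length, TGCGCGCGGC, with the MT2A match at -139. Both runs include the 7 letters of the motif, which the search largely required, so most of each run was set in advance. The matches in SLC30A1 and SLC39A10 had the TGCACNC form, and those in SLC39A6 and SLC39A8 the TGCGCNC form. TGCACNC stood in 2 of the 13 windows (15.4%), in 4 of the 18 windows of the other zinc carriers (22.2%) and in 12.1% of all windows. SLC30A6 and SLC39A5, which did not pass the test, also held it. The SLC39A10 match lay after the start of 1 of its 2 windows, and that of SLC30A1 at -49 lay before the start. In the windows of MTF1, SLC30A5, SLC30A7, SLC30A10 and SLC39A7 these letters were not found, which says only that they are not in these windows.

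**Figure D2:**
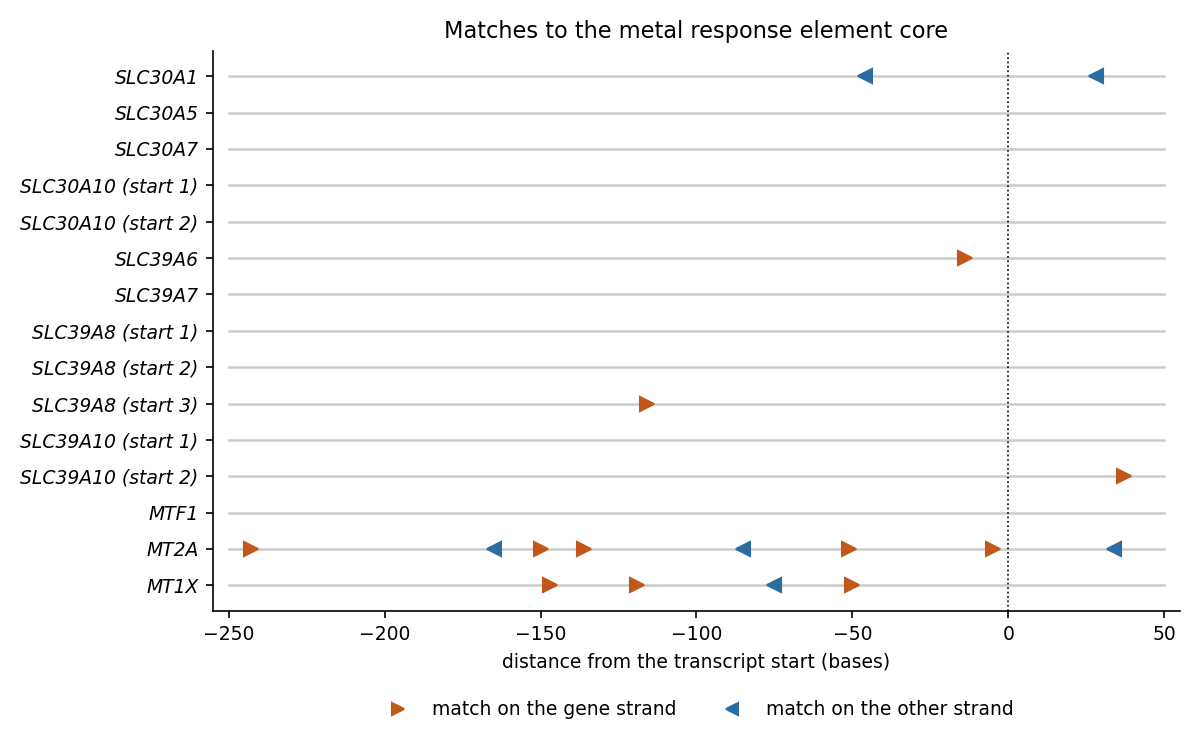
Matches to TGCACNC or TGCGCNC along each promoter window (horizontal axis, bases from the transcript start at the dotted line), 1 row per RefSeq start, with arrowheads for the strand. SLC30A1 has 2 matches and SLC39A6, SLC39A8 and SLC39A10 have 1 each, against 8 in MT2A and 4 in MT1X.

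SLC30A5, SLC30A7 and SLC30A10 encode exporters of the secretory pathway and of manganese. SLC30A5 (chromosome 5, 69093646 to 69131069, plus strand, GRCh38, GENCODE 29) encodes ZnT5, which works with ZnT6 to load zinc into the early secretory pathway, and it was at 10.41, 9.83 and 10.36 FPKM in the controls and 11.05, 11.04 and 12.13 in the treated libraries. The groups did not overlap, but the log2 fold change of 0.13 (SE 0.065, 95% interval -0.012 to 0.26) did not pass, and without treated library 3 it was 0.073. SLC30A7 (chromosome 1, 100896076 to 100981753, plus strand) encodes ZnT7, a zinc carrier of the Golgi, and fell from 8.91, 9 and 8.05 FPKM to 7.24, 6.95 and 6.31, a log2 fold change of -0.38 (SE 0.067). SLC30A10 (chromosome 1, 219685427 to 219958647, minus strand) encodes a carrier known in liver for exporting manganese rather than zinc. It was at 14.67, 14.84 and 15.38 FPKM in the controls and 16.13, 16.92 and 16.71 in the treated libraries, a difference of 0.11 on the log2 scale (SE 0.054, 95% interval -0.0031 to 0.23) that did not pass. Of the 4 exporters SLC30A1 alone changed by 2-fold or more.

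Among the importers SLC39A10 moved furthest. SLC39A10 (ENSG00000196950, chromosome 2, 195575977 to 195737702, plus strand, GRCh38, GENCODE 29) encodes ZIP10, a plasma membrane importer of the LIV-1 group. It was at 17.39, 15.49 and 16 FPKM in the control libraries and 4.33, 5.03 and 2.9 FPKM in the treated libraries. No treated library came near the controls, and treated library 3 was the lowest. The control mean was 16.3 ± 0.98 FPKM and the treated mean 4.09 ± 1.09 FPKM (SD, n = 3 each). The log2 fold change was -2.05 (SE 0.13; edgeR, adjusted p = 1.22e-08). Leaving out single libraries gave -2.22 to -1.84, with the smallest change, -1.84, without treated library 3. This call also held in each of the 15 alternatives.

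SLC39A6 (chromosome 18, 36108532 to 36129385, minus strand, GRCh38, GENCODE 29) encodes ZIP6, the closest relative of ZIP10 and its known partner in a joint complex. Its transcript did not follow that of SLC39A10. It was at 13.17, 13.54 and 12.88 FPKM in the controls and 15.39, 15.48 and 16.9 in the treated libraries, and rose by 0.23 on the log2 scale (SE 0.065). Without treated library 3 the rise was 0.18. In the controls the SLC39A10 level was above that of SLC39A6 in every library, and in the treated libraries it was below in every library.

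SLC39A14 and SLC39A8 encode ZIP14 and ZIP8, which carry manganese and iron as well as zinc, and they moved in opposite directions. SLC39A14 (ENSG00000104635, chromosome 8, 22367249 to 22434129, plus strand, GRCh38, GENCODE 29) was at 39.91, 40.18 and 40 FPKM in the controls and 47.33, 43.33 and 51.59 in the treated libraries. It rose by 0.21 on the log2 scale (SE 0.066; edgeR, adjusted p = 0.0160). This call rests on all 3 controls: without control library 1, 2 or 3 the adjusted p (edgeR) was 0.0570, 0.0576 and 0.0679, and only 2 of the 10 genes were then called higher. Without treated library 3 its log2 fold change was 0.14 (edgeR, adjusted p = 0.0301). SLC39A8 (chromosome 4, 102251041 to 102431258, minus strand) was the lowest of the 10 genes, with 118 to 244 counts per library. It was at 1.44, 1.54 and 1.39 FPKM in the controls and 1.02, 0.85 and 1.14 in the treated libraries, and fell by 0.57 on the log2 scale (SE 0.12). All of its treated values were below all of its control values. It shares 197 exon bases with a long noncoding RNA on the same strand that had a mean of 10.3 counts.

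SLC39A7 (chromosome 6, 33200445 to 33204439, plus strand, GRCh38, GENCODE 29) encodes ZIP7, which releases zinc from the endoplasmic reticulum and Golgi, and was the highest of the 10 genes. It was at 63.64, 65.5 and 67.05 FPKM in the controls and 60.01, 67.03 and 63.22 in the treated libraries. The groups overlapped, and the log2 fold change of -0.082 (SE 0.057, 95% interval -0.20 to 0.040) did not pass. Its exons share 244 bases with RXRB on the opposite strand, and whether the counting used strand is not given in the sources used here.

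MTF1 (ENSG00000188786, chromosome 1, 37809567 to 37859620, minus strand, GRCh38, GENCODE 29) is the sensor. Its transcript was low, at 2.64, 2.81 and 2.55 FPKM in the controls and 3.7, 2.82 and 3.06 in the treated libraries. The groups were separated only by the step from 2.81 to 2.82 FPKM, and treated library 1 was the highest. The log2 fold change was 0.22 (SE 0.099; edgeR, adjusted p = 0.0756). Without treated library 1 it was 0.11 (adjusted p = 0.335), without treated library 2 it was 0.31 (adjusted p = 0.0205) and without treated library 3 it was 0.25 (adjusted p = 0.0429). A transcript level says nothing of whether the protein was bound to zinc.

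In 9 of the 10 genes, all but SLC39A7, the treated FPKM values lay wholly above or wholly below the control values. Over all tested genes this held for 58.9%. The number called higher also depends on scaling: without TMM factors, which adjust library sizes for composition, 6 of the 10 were called higher, with SLC30A5, SLC30A10 and MTF1 added. With 4 of the 10 called higher, the limma fits added SLC30A10, and the edgeR fit with no expression filter added MTF1. Leaving out treated library 1 also gave 4, with SLC30A10 called (log2 fold change 0.13), and leaving out treated library 2 or 3 gave 4, with MTF1 called.

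**Figure D3:**
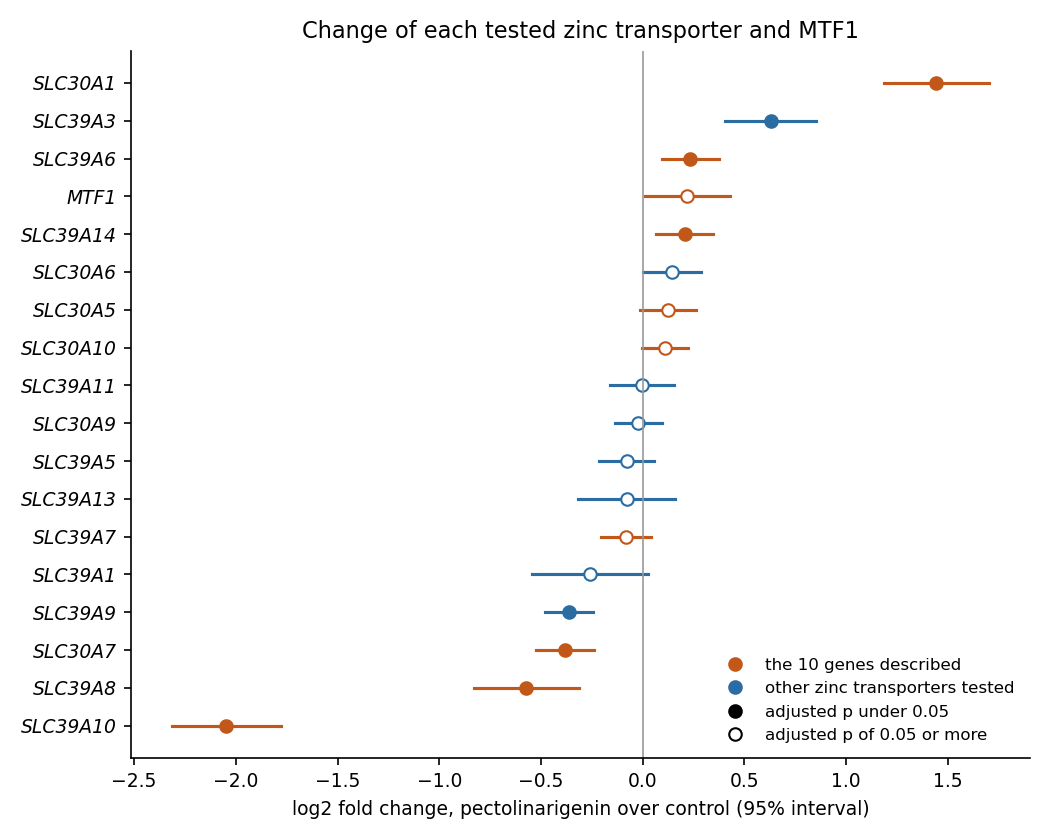
Log2 fold change (pectolinarigenin over control, horizontal axis) with its 95% interval for 18 genes, the tested zinc carriers and MTF1. Filled points passed an adjusted p under 0.05. SLC30A1 at 1.44 and SLC39A10 at -2.05 lie outside the range of -0.57 to 0.63 that holds the rest.

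Both carrier families were completed by taking every member not described above. What remained depended on the choice of the described genes, which was made with the treated and untreated difference known. The remaining genes are therefore not an unselected background for the described ones, and their values are given as a description. Of 15 such genes 8 passed the expression filter. SLC39A3, which encodes the plasma membrane importer ZIP3, rose by 0.63 on the log2 scale (SE 0.11). Its level was 2.18 ± 0.24 FPKM in control and 3.44 ± 0.12 FPKM in treated cells (SD, n = 3 each). SLC39A9, which encodes ZIP9, fell by 0.36 on the log2 scale (SE 0.056), with 15.87 to 16.05 FPKM in control and 12.46 to 13.24 FPKM in treated cells. The other 6 did not pass: SLC30A6, which encodes the partner of ZnT5, was at 0.14 (95% interval 0.0012 to 0.29), and SLC30A9, SLC39A1, SLC39A5, SLC39A11 and SLC39A13 lay between -0.26 and -0.0020. SLC30A6 was called in the limma fits, without TMM factors and without treated library 1 (0.16 to 0.18), and without treated library 3 it was at 0.079 (edgeR, adjusted p = 0.297). So 1 of the 8 was called higher and 1 lower, beside 25.3% higher and 25.3% lower of all tested genes. The median of the 8 was -0.050, against 0.00071 over all tested genes.

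The 7 genes below the filter included SLC30A2 and SLC39A12, named after their values were seen, with 0 counts in all 6 libraries. That allows up to 0.148 to 0.198 CPM (each count relative to its library's total) per library, for counting error only. SLC39A4, named in the same way, had 24, 38 and 20 counts in the controls and 6, 7 and 21 in the treated libraries. Without the expression filter it was called lower (log2 fold change -1.29, SE 0.33). Its FPKM values did not overlap, at 0.26, 0.41 and 0.27 in the controls and 0.08, 0.09 and 0.21 in the treated libraries.

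SLC39A7 and SLC39A14 had the highest length-scaled levels among the carriers. With the FPKM of all 24 carriers summed in each library, SLC39A7 held 25.9 ± 0.54% in control and 24.3 ± 1.4% in treated cells, and SLC39A14 15.8 ± 0.10% and 18.2 ± 1.3% (SD, n = 3 each). SLC30A1 went from 2.95 ± 0.12% to 7.90 ± 1.54%, which took it from rank 12 to rank 4 among the 24. SLC39A10 went from 6.45 ± 0.41% to 1.58 ± 0.45%, from rank 4 to rank 13. Ranks are by group mean, and some neighbours overlapped across libraries. In treated cells SLC30A1 (17.54 to 26.15 FPKM) overlapped SLC39A5 (20.26 to 23). In control cells SLC39A10 (15.49 to 17.39) overlapped SLC39A9 (15.87 to 16.05), and in treated cells SLC39A10 (2.9 to 5.03) overlapped SLC39A3 (3.3 to 3.52). Shares and ranks also rest on the gene lengths behind the deposited FPKM.

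The summed level of the 10 SLC30A genes was 65.5 ± 0.49 FPKM in control and 81.1 ± 6.1 in treated cells (SD, n = 3 each). With SLC30A1 taken out, the sums of the other 9 were 58.0 ± 0.41 and 60.4 ± 1.4, and the libraries of the groups did not overlap. The 14 SLC39A genes summed to 187.3 ± 1.3 FPKM in control and 179.8 ± 3.9 in treated cells. Without SLC39A10, the sums of the other 13 were 171.0 ± 2.1 and 175.7 ± 4.4, and the libraries of the groups overlapped. These sums were not tested, and the deposited FPKM has no TMM adjustment. In the fit without TMM factors, log2 fold changes of the tested genes were higher by a median of 0.037.

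**Figure D4:**
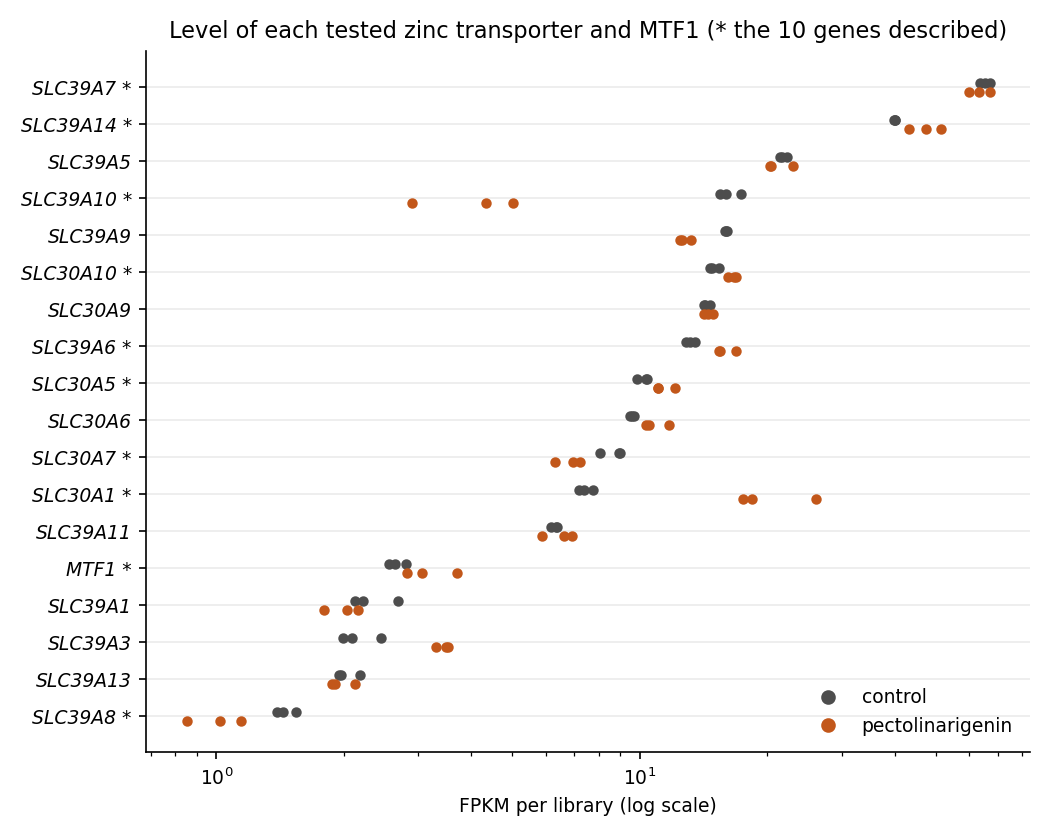
FPKM of each library (horizontal log axis) for 18 genes, the tested zinc carriers and MTF1, ordered by the control mean, with control libraries in grey and pectolinarigenin libraries in orange. SLC39A10 drops from 15.49 to 17.39 FPKM in control to 2.9 to 5.03, and SLC30A1 moves from 7.19 to 7.74 up to 17.54 to 26.15.

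By control FPKM the order of the 10 genes was SLC39A7, SLC39A14, SLC39A10, SLC30A10, SLC39A6, SLC30A5, SLC30A7, SLC30A1, MTF1 and SLC39A8, and no neighbours in it overlapped across libraries. In treated cells SLC30A1 took the third place and SLC39A10 the eighth. There SLC30A10 (16.13 to 16.92 FPKM) overlapped SLC39A6 (15.39 to 16.9), and SLC39A10 (2.9 to 5.03) overlapped MTF1 (2.82 to 3.7). The order rests on the gene lengths behind the deposited FPKM. For SLC30A10 that length was 8831 bases, against 5770 bases of exons in GENCODE 29, and for SLC39A8 8496 against 6480. With the GENCODE lengths SLC30A10 would be at 22.9 FPKM in control cells, above SLC39A10 at 16.3, and SLC39A8 at 1.91 would still be the lowest. In treated cells SLC30A10 would be at 25.4 FPKM, above SLC30A1 at 22.3, which would then take the fourth place.

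Of 11 metallothionein genes, measured in the same libraries, 7 were tested and all 7 were called higher, beside 25.3% of all tested genes. MT3 and MT4, named after their values were seen, had 0 counts in every library. Of these 7, all but MT2A had control means under 1 FPKM and passed the filter through the treated libraries, so the count is no support. MT2A was at 2.53, 3.17 and 2.6 FPKM in the controls and 245.8, 237.4 and 325.8 in the treated libraries, and MT1X at 0.22, 0.16 and 0.31 against 19.1, 18.8 and 32.2. Near-identical copies make the division of reads among these genes uncertain.

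Treated library 3 was the extreme treated library for SLC30A1, SLC39A10, MT2A and MT1X. Relative to the mean of treated libraries 1 and 2 its log2 CPM was 0.57 higher for SLC30A1, 0.46 higher for MT2A and 0.79 higher for MT1X, while for SLC39A10 the difference was -0.66. It lay farthest in the direction of the mean change for 7 of the 10 genes, for 47.5% of all tested genes and for 54.4% of called genes. The median absolute difference of this library from the mean of the other treated libraries was 0.13 over all tested genes. Whether this library differed in exposure, culture or preparation was not tested.

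**Figure D5:**
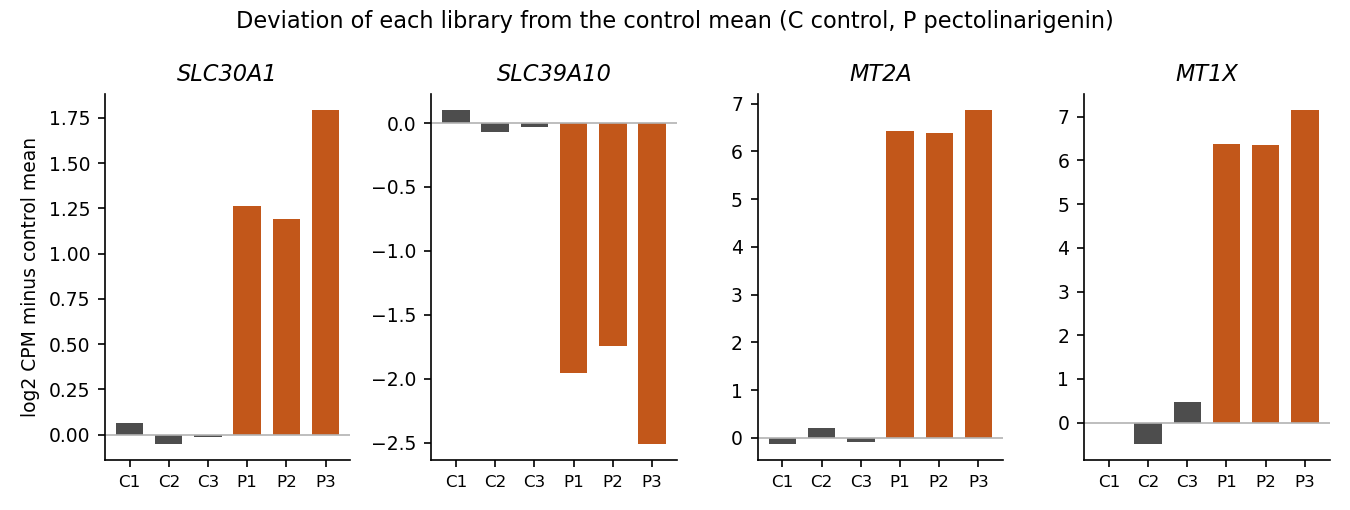
Log2 CPM of each library minus the control mean (vertical axes, which differ between panels) for SLC30A1, SLC39A10, MT2A and MT1X, with control libraries C1 to C3 and pectolinarigenin libraries P1 to P3. P3 is the most distant bar in each panel, at 1.79 for SLC30A1 and -2.51 for SLC39A10.

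Further genes of zinc handling, from a list that includes partners of MTF1, moved in both directions. Of 20 listed symbols 18 were in the table and 11 were tested, with 4 called higher, 3 lower and 4 not called, and a median of -0.061. Of all tested genes 25.3% were called higher and 25.3% lower, so calls in both directions are no trait of this list. SP1, a transcription factor reported to act with MTF1, fell by 0.70 on the log2 scale (SE 0.068), from 27.85 to 28.01 FPKM in the controls to 15.73 to 19.65 in the treated libraries. The SUMO ligase PIAS1 fell by 0.28 on the log2 scale (SE 0.063). CSNK2B, the regulatory subunit of the kinase that phosphorylates ZIP7, rose by 0.34 (SE 0.089), and CBWD1, a zinc chaperone with near-identical copies, by 0.39 (SE 0.11). CBWD1 had means of 0.88 FPKM in control and 1.18 in treated cells, so it passed the filter through the treated libraries. Its call, among the 4 higher, is therefore no support. ZNF658, a zinc-responsive repressor named after its counts were seen, had 0 counts in the controls and 2, 0 and 1 in the treated libraries.

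Zinc enzymes of the secretory pathway, which ZnT5, ZnT6 and ZnT7 serve, were described from a list of 18 genes. Of 12 tested, 6 were called lower, 2 higher and 4 not at all, with a median of -0.15. ENPP1, ENPP2 and ENPP3, which encode phosphodiesterases, fell by 0.75 (SE 0.065), 0.75 (SE 0.073) and 1.31 (SE 0.14) on the log2 scale. NT5E, which encodes an ectonucleotidase, rose by 0.73 (SE 0.056). A list drawn up for carriers of other metals was split too, though not all of its genes are established metal carriers. Of 15 tested in this list of 20, 3 were called higher, 4 lower and 8 not at all, with a median of 0.041. Among them the copper exporter ATP7B fell by 0.45 (SE 0.067), the magnesium-related CNNM2 fell by 0.29 (SE 0.063), the copper importer SLC31A1 rose by 0.26 (SE 0.054) and ATP13A1 rose by 0.29 (SE 0.065). These lists are described by their counts only, beside 25.3% higher and 25.3% lower over all tested genes.

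The genes whose log2 CPM most resembled that of SLC30A1 across the 6 libraries were PLIN2, which coats lipid droplets (Pearson's r = 0.9996), the transcription factor KLF5 (r = 0.9992) and the chaperonin subunit CCT2 (r = 0.9992). For SLC39A10 they were NFKBIZ, a nuclear regulator of NF-kB (r = 0.9990), EPN2 (r = 0.9988) and VANGL2 (r = 0.9987). The likeness is in shape and need not be in size. PLIN2 rose by 1.48 on the log2 scale (SE 0.11), close to the 1.44 of SLC30A1, and KLF5 by only 0.50 (SE 0.061). NFKBIZ changed by -0.79 (SE 0.073), against -2.05 for SLC39A10. These r values describe 6 libraries in 2 groups, and many genes come close: 1194 of 12828 reached 0.95 with SLC30A1 and 1207 with SLC39A10.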

How the data were processed

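The deposited table gives, for each gene and library, a raw count and an FPKM value made by the authors. The submitters' processing notes name HTSeq 0.6.1, HISAT2 2.0.1 and cutadapt 1.9.1, and the build GRCh38. Not given in the sources used here: annotation release, strand setting and treatment of multi-mapping reads. Counts were tested with edgeR 4.0.16 (R 4.3.3): TMM factors, quasi-likelihood F test, no covariate, all 6 libraries, genes with mean FPKM of at least 1, 2-sided p-values, Benjamini-Hochberg adjustment, threshold 0.05. SE was derived from the F statistic. The scripts were tested on simulated counts. Alternatives were limma 3.58.1 on log2(FPKM + 1) and log2(FPKM + 0.1), DESeq2 1.42.0, other filters and scalings, a replicate block, and leaving out each library. No library pair of a group agreed within sampling noise (chi-square per degree of freedom 1.53 to 11.1). Log2 CPM used TMM factors and an offset of 0.01. Named were the 10 genes, every other tested zinc carrier, up to 4 called genes with the smallest p of each further list, MT2A and MT1X, and the 3 nearest patterns. Outside this rule, SLC30A2, SLC39A4, SLC39A12, ZNF658, MT3 and MT4 were named after their values were seen. Members and lists were chosen with earlier results of these data known. A planned comparison of protein sequences was not made.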

Additional observations from a re-analysis of the deposited data

How the results depend on the processing

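SLC30A1, SLC39A10, SLC30A7, SLC39A6 and SLC39A8 kept their direction and call in every alternative that gave them a value (15 each, 14 for SLC39A8, which a mean FPKM of at least 5 removes, as it does MTF1). No named carrier reversed a call. Without TMM factors 6 of the 10 genes were called higher. Of the 8 other zinc carriers tested, 1 was called higher and 1 lower, beside 25.3% each of all tested genes. Among these other carriers the number called higher was 2 without TMM factors and 2 in each limma fit. It was 0 with the mean FPKM floor raised to 5 and 1 to 2 without single libraries. The number called lower was 2 with no expression filter and 2 with filterByExpr, by the addition of SLC39A4. At a mean FPKM of at least 5, 4099 genes were called in all, since fewer were tested (7144). Restricted to TGCACNC, 2 of the genes held the promoter motif in place of 4. The replicate block called 6540 genes, 3 higher and 3 lower among the 10. Same-numbered libraries did not deviate together (r = 0.013, 0.049 and -0.029), so the numbers were not taken as pairs. Among the 10 genes SLC39A8 and MTF1 rest on the fewest counts, with SEs of 0.12 and 0.099. The SEs of SLC30A1 (0.12) and SLC39A10 (0.13) were about as large or larger. The log2(FPKM + 1) scale reduces the SLC39A8 change to -0.30.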
